A study of Mus musculus with 10 samples.

Results

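Ern1 and Xbp1 encode the most conserved arm of the unfolded protein response, the programme by which a cell answers unfolded protein in its endoplasmic reticulum (ER). They were measured here in regenerating mouse liver together with 8 genes of the same machinery: Traf2, Atf6, Atf6b, Mbtps1, Mbtps2, Creb3l3, Creb3l2 and Eif2ak3. The 10 genes were taken by symbol, through their Ensembl identifiers, from the 55487 genes of each of 2 liver count tables. All 10 passed the filter on low counts in both tables, and their counts ran from 162 to 14780 per library.

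By their labels, both experiments used 8-week-old male C57BL/6J mice, and the sex is taken up below. The mice underwent partial hepatectomy (PHx): most of the organ is cut away and what is left grows back. In the diet experiment, 3 liver libraries of mice on chow and 3 of mice on a high-fat diet (HFD) were compared. The diets were given for 7 days before surgery and the tissue was taken 40 hours after it. In the inhibitor experiment, 4 liver libraries of mice given solvent (vehicle) and 4 of mice given SSO were compared at 48 hours after surgery. SSO was given at 40 mg/kg, 1 day before PHx. The labels do not expand the name, which is the usual short form of sulfosuccinimidyl oleate, a blocker of the fatty acid carrier CD36. No mouse in either comparison carried a modified gene, and every liver had been operated on, so neither table holds an unoperated control. The inhibitor protocol names 8 mice per arm, and which of them gave the 4 libraries is not stated.

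Libraries held 31.9 to 39.9 M counts (diet) and 25.2 to 30.4 M counts (inhibitor). Hepatocyte markers, led by Alb at 30839 to 82776 CPM (counts scaled to the total of each library), were high in every library, which fits the labelled tissue. The labelled sex did not match in the inhibitor experiment: Xist was at 698 to 1772 CPM and Ddx3y at 0 in all 8 libraries, while in the diet experiment Xist was at 0.620 CPM or less and Ddx3y reached 76.3. The vehicle libraries stood apart from each other. Along the leading principal component (45.8% of the variance), the scores were -97.3 for vehicle 1, -92.8 for vehicle 3, -2.89 for vehicle 4, 52.5 for vehicle 2 and 31.8 to 40.5 for SSO. Mitochondrial transcripts took 22.5% of the counts in vehicle 2, 4.99% to 11.5% in the other vehicle libraries and 15.2% to 17.6% in SSO. For the inhibitor experiment, the members' fold changes and the medians of the pathway lists are therefore given with and without vehicle 1 and 3. The tissue is bulk liver, in which fewer cells of a type and less RNA per cell cannot be told apart.

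As background, the response has 3 sensors that span the ER membrane. IRE1α, encoded by Ern1, is a kinase and endoribonuclease: once active it cuts a short intron out of Xbp1 mRNA, and the joined message encodes a potent transcription factor, XBP1s. It also binds the adaptor TRAF2, which leads to JNK signalling, and it degrades other ER-bound messages, a process called RIDD. ATF6 and its relative ATF6B are transcription factors held in the membrane. They travel to the Golgi, where site-1 protease (Mbtps1) and site-2 protease (Mbtps2) release them. PERK, encoded by Eif2ak3, slows translation by phosphorylating eIF2α and so raises ATF4. CREBH (Creb3l3), abundant in hepatocytes, and BBF2H7 (Creb3l2) are further membrane-held factors cut by the same proteases. The hepatocyte secretes most plasma proteins and relies on this system.

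The substrate of IRE1α is printed first because the counts cannot resolve it. The stretch is chr11:5524269-5524314 (GRCm38, plus strand), in exon 4 of the 5 exons of the main coding Xbp1 transcript of GENCODE. Capitals mark the 26 bases at chr11:5524279-5524304 that lie between both IRE1 cuts, each made within a CNGCAG site after its first G.
Xbp1: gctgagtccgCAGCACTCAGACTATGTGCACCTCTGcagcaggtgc
Of 7 CNGCAG sites in the 2129-base transcript, 2 pairs were 26 bases apart. The pair shown is the one whose removal lengthens the reading frame, from 267 to 371 codons. A gene-level count adds the cut and the uncut form together, so each Xbp1 value in this text is the sum of both.

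Promoters are printed for Creb3l2, the member with the widest difference between groups, and for Hspa5 and Creld2, target genes used below as readouts. Each is the 250 bases before the start in RefSeq's table for GRCm38, and capitals mark matches to either of 2 motifs searched on both strands. The ER stress response element, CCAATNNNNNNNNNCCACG, is the textbook site of ATF6 and XBP1 beside NF-Y, and TGACGT is the core shared by CRE-like sites. Only the fixed letters of the first are in capitals.
Creb3l2, chr6:37442149-37442398, minus strand: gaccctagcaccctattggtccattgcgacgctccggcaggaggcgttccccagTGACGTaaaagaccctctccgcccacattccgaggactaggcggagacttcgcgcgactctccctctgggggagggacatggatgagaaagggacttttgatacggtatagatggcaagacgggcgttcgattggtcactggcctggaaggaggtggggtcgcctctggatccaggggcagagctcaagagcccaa
Hspa5, chr2:34771840-34772089, plus strand: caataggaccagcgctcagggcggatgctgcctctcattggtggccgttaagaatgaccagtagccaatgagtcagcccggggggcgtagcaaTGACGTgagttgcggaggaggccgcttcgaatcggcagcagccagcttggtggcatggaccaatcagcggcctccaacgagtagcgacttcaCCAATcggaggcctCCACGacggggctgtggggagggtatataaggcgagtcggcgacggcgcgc
Creld2, chr15:88819396-88819645, plus strand: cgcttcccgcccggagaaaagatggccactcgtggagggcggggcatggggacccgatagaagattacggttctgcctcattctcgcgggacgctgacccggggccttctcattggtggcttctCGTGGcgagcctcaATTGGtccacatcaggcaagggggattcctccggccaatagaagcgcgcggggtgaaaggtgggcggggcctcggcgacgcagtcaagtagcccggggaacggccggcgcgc
The element begins 65 bases before the start in Hspa5. In Creld2 it begins 126 bases before the start and reads on the opposite strand, so its letters appear there as the reverse complement. TGACGT begins 196 bases before the start in Creb3l2 and 157 in Hspa5, apart from the element. Over the windows of RefSeq's table, which run to 50 bases past the start, the element was found in 39 of 32851 (0.119%) and TGACGT in 2468 (7.51%). Of the 10 members, 9 had an entry, all but Atf6. None of the 9 held the element, and 2 held TGACGT, Creb3l2 and Traf2. Of 16 chaperones and folding enzymes, 12 had an entry and 7 of these held the element: Hspa5, Hsp90b1, Dnajc3, Pdia6, Calr, Canx and Creld2. That list was made of known ATF6 and XBP1 targets, so the share describes the list.

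Per length of exon, Creb3l3 and Xbp1 stood well above the other members in every group. Levels per length are in RPKM, that is CPM per kilobase, computed with the summed exon length of each gene. Creb3l3 was at 106 ± 28.2 RPKM in chow (SD, n = 3), 109 ± 23.4 in HFD (n = 3), 72.3 ± 15.7 in vehicle (n = 4) and 60.9 ± 2.67 in SSO (n = 4). Xbp1 was at 90.8 ± 19.7, 108 ± 13.9, 71.9 ± 15.9 and 54.0 ± 3.56 RPKM in the same groups. The ranges of these genes overlapped in chow, HFD and vehicle and not in SSO. Atf6b (rank 3) and Ern1 (rank 4) came next in all 4 groups, at 9.02 to 11.9 and 7.61 to 9.91 RPKM by group mean, with ranges that overlapped except in SSO. At the other end, Mbtps2 was lowest in every group, with group means of 0.709 to 1.08 RPKM, below the range of the next gene each time. Eif2ak3 and Traf2 took the places just above it in chow and HFD, where their ranges overlapped. Creb3l2 kept no fixed place: it had rank 5 in HFD and vehicle, rank 6 in chow and rank 8 in SSO.

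**Figure D1:**
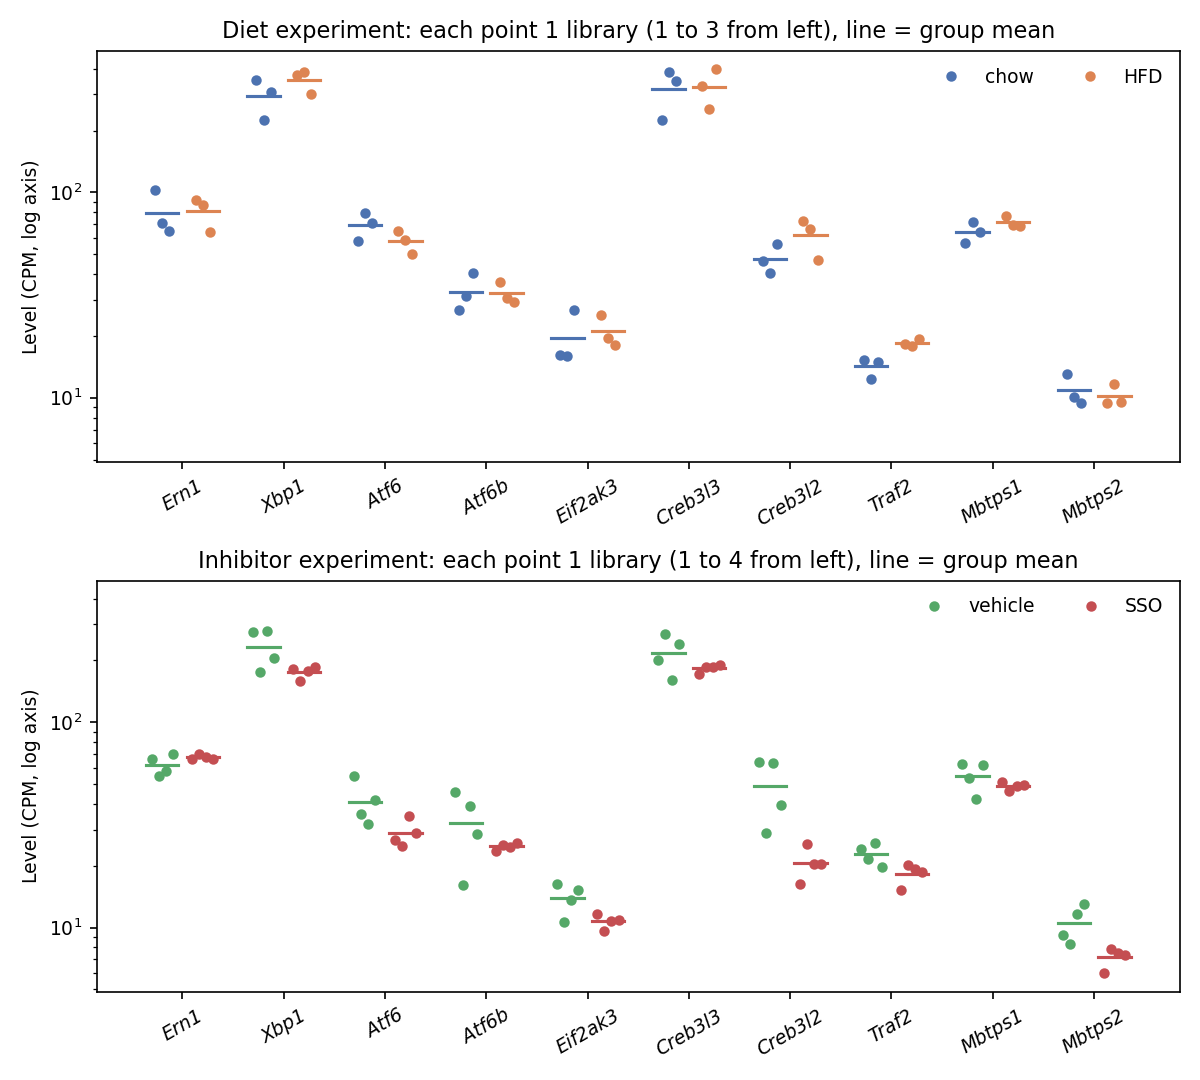
Level of the 10 members in each library (CPM, log axis), in the diet experiment above and the inhibitor experiment below. Points are libraries in number order from the left and lines are group means. The vehicle points spread more widely than the SSO points for 9 of 10 members, and the share of all genes doing so was not computed.

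In the diet experiment no member passed the test. By edgeR's quasi-likelihood test, 0 of the 10 had an adjusted p under 0.05, where 2.32% of the 15589 genes tested did, 249 higher and 112 lower in HFD. DESeq2 and limma-voom also called 0 of the 10, where they called 5.94% and 2.64% of all genes. At an unadjusted p under 0.05 there was 1 member, Traf2, against 15.0% of all genes, and the same 1 had groups that did not overlap, against 21.9% of all genes. The median log2 fold change was 0.07 over the members and -0.02 over all genes tested. With library size alone as the scale the median of all genes moved by 0.15, the called genes split 336 higher and 60 lower (84.8% higher, against 69.0%), and the median of the members was 0.23.

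The IRE1 arm comes first. Ern1 (chr11:106394650-106487852, minus strand) was at 103, 70.9 and 64.8 CPM in chow 1 to 3 and at 91.7, 87.0 and 64.2 in HFD 1 to 3. Its groups overlapped almost fully. Fitted as HFD minus chow, its log2 fold change was 0.02 ± 0.21 (SE; edgeR adjusted p = 0.977), with a 95% interval of -0.45 to 0.49, that is a fold of 0.734 to 1.41. Its sign changed when single libraries were left out, between -0.11 and 0.26. Xbp1 (chr11:5520659-5525893, plus strand) was at 352, 226 and 307 CPM in chow and at 371, 385 and 300.2 in HFD. Chow 2 was the lowest library, and the other 5 lay between 300.2 and 385. Its log2 fold change was 0.25 ± 0.20 (95% interval -0.19 to 0.70) and did not pass.

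Traf2 (chr2:25517982-25546940, minus strand), the adaptor between IRE1α and JNK, was at 15.3, 12.3 and 15.0 CPM in chow and at 18.3, 17.8 and 19.3 in HFD. All 3 HFD libraries lay above all 3 chow libraries. The fitted log2 fold change was 0.37 ± 0.14 (unadjusted p = 0.0258, edgeR adjusted p = 0.251; 95% interval 0.06 to 0.69), so it did not pass over all genes. Recruited monocyte markers, summed over 10 genes, were at 69.2 to 95.2 CPM in chow and 114 to 122 in HFD, mostly Spp1 at 39.6 to 63.9 and 82.5 to 87.4. Without Spp1 the other 9 summed to 20 to 36.5 CPM in chow and 26.6 to 36.8 in HFD and overlapped. Spp1 is also on the cholangiocyte marker list, whose sum was at 57.0 to 88.1 CPM in chow and 104 to 112 in HFD, and where Sox9 was at 7.75 to 11.2 and 12.3 to 16.5. By edgeR 0 markers of either list were called, and DESeq2 called Spp1 (adjusted p = 0.0341) and Sox9 (0.0267). S100a4 was at 0 in all chow libraries, which allows 0.0770 to 0.0922 CPM, and at 0.0276 to 0.0591 CPM in HFD. Its counts were too low to be tested. The part of these cells in the Traf2 values was not tested.

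The ATF6 pair and its proteases differed little. Atf6 (chr1:170704674-170867771, minus strand) had 57.9, 79.5 and 71.3 CPM in chow against 65.1, 58.8 and 50.2 under HFD, with a log2 fold change of -0.26 ± 0.16 (edgeR adjusted p = 0.493). Its groups overlapped through chow 1. Atf6b (chr17:34647146-34655074, plus strand) ran from 26.7 to 40.3 CPM in chow and from 29.3 to 36.7 in HFD, and its log2 fold change of -0.03 ± 0.17 became 0.14 with library size alone. Mbtps1 (chr8:119508156-119558735, minus strand), which makes the first cut in ATF6, ran from 56.5 to 71.8 and from 68.5 to 76.4 CPM. Mbtps2 (chrX:157535371-157598715, minus strand), which makes the second cut within the membrane, ran from 9.44 to 13.1 and from 9.46 to 11.7 CPM. It shares 28.4% of its exon length with Yy2 on the same strand, so its level is uncertain. Its log2 fold changes of the proteases were 0.15 ± 0.13 and -0.09 ± 0.19 (edgeR adjusted p = 0.650 and 0.872), the second 0.05 with library size alone.

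Among the membrane-held CREB factors, Creb3l2 (chr6:37327255-37442146, minus strand) was at 46.1, 40.4 and 55.9 CPM in chow and at 72.9, 66.5 and 46.8 in HFD. HFD 3 lay within the chow range and the other HFD libraries above it. The log2 fold change was 0.39 ± 0.19 (edgeR adjusted p = 0.398; 95% interval -0.05 to 0.82). Creb3l3 (chr10:81084324-81098874, minus strand) was at 224, 387 and 349 CPM in chow and at 330.4, 256 and 397 in HFD, with a log2 fold change of 0.03 ± 0.24 that was -0.02 by limma-voom. Eif2ak3 (chr6:70844515-70905245, plus strand) ran from 16.0 to 26.8 CPM in chow and from 18.1 to 25.4 in HFD, with a log2 fold change of 0.10 ± 0.23. It shares 8.05% of its exon length with Gm43292 on the other strand, and the strand use of the counting is not given in the sources used here.

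**Figure D2:**
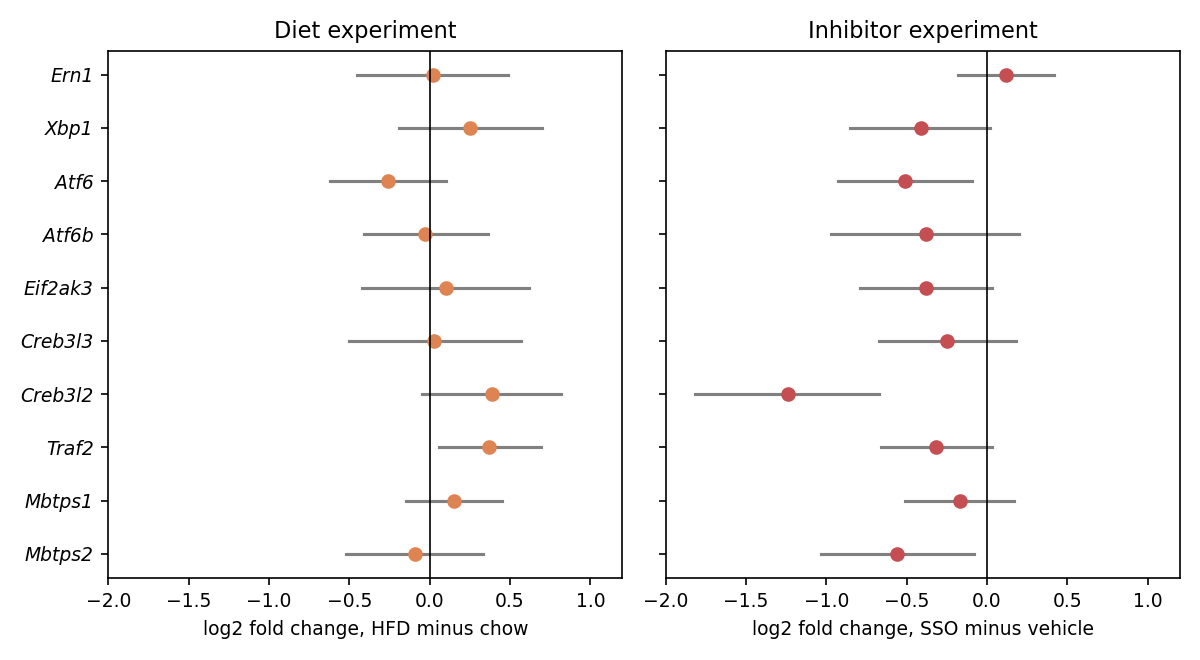
Log2 fold change of each member with its 95% interval (edgeR; n = 3 per group on the left, n = 4 on the right), HFD minus chow and SSO minus vehicle. On the left only the interval of Traf2 lies off 0; on the right those of Atf6, Creb3l2 and Mbtps2 do, and 9 of 10 points lie below 0.

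In the inhibitor experiment 9 of the 10 members had a fitted value below 0 in SSO, all but Ern1, yet none passed the main test. By edgeR 0 of 10 had an adjusted p under 0.05, where 0.450% of the 15788 genes tested did, 50 higher and 21 lower. A fitted value below 0 was found for 53.0% of all genes, and the median log2 fold change was -0.38 over the members and -0.04 over all genes. At an unadjusted p under 0.05 there were 3 members, Creb3l2, Atf6 and Mbtps2, against 20.5% of all genes in either direction. All 3 were lower, as were 12.5% of all genes at that limit. Groups did not overlap for 2 members, Creb3l2 and Mbtps2, both lower, against 11.8% of all genes in either direction and 5.62% lower. DESeq2 and limma-voom each called 1 member, Creb3l2, where they called 7.71% and 14.4% of all genes. With library size alone the median of all genes moved by -0.16, the called genes split 33 higher and 4 lower (89.2% higher, against 70.4%), and all 10 members were below 0, Ern1 at -0.05.

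Creb3l2 showed the widest difference of the 10. It was at 64.0, 28.8, 63.0 and 39.7 CPM in vehicle 1 to 4 and at 16.3, 25.6, 20.3 and 20.4 in SSO 1 to 4. All 4 SSO libraries lay below all 4 vehicle libraries, though vehicle 2 was only a little above SSO 2. Its log2 fold change, SSO minus vehicle, was -1.24 ± 0.26, a fold of 0.423 (95% interval 0.284 to 0.629; unadjusted p = 6.20e-04, edgeR adjusted p = 0.0789). The call depended on the tool and the libraries: the adjusted p was 0.00157 by DESeq2, 0.00703 by limma-voom and 0.0153 by edgeR with no filter on low counts. It was 0.00286 by edgeR without vehicle 2 and 0.0446 without vehicle 4, and up to 0.268 over the other libraries left out in turn. Without vehicle 1 and 3, which leaves only vehicle 2 and 4 in that group, the log2 fold change was -0.73 ± 0.21 (edgeR adjusted p = 0.182).

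Ern1 was the 1 member fitted above 0. Its levels were 66.5, 54.8, 57.9 and 69.7 CPM in vehicle and 65.9, 69.9, 67.8 and 66.4 in SSO. The SSO libraries sat close together, inside the vehicle range except for SSO 2, which was just above it. The fitted log2 fold change was 0.12 ± 0.14 (edgeR adjusted p = 0.648), with a 95% interval of -0.18 to 0.42, a fold of 0.880 to 1.34. Leaving out vehicle 1 and 3 gave 0.12 ± 0.15.

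Xbp1 was at 274, 175, 279 and 206 CPM in vehicle and at 181, 159, 178 and 185 in SSO. Vehicle 1 and 3 were high, vehicle 4 was just above the SSO libraries and vehicle 2 lay among them. The log2 fold change was -0.41 ± 0.20 (edgeR adjusted p = 0.264; 95% interval -0.85 to 0.02), and -0.12 ± 0.16 without vehicle 1 and 3. XBP1 is also a defining factor of plasma cells. Summed plasma and B cell markers were at 15.1 to 45.7 CPM in vehicle and 34.8 to 96.5 in SSO, and their part in the Xbp1 values was not tested. Traf2 was at 24.2, 21.7, 25.7 and 19.8 CPM in vehicle and 15.2, 20.2, 19.2 and 18.7 in SSO, with overlap between vehicle 4 and SSO 2 only. Its log2 fold change was -0.32 ± 0.16 (edgeR adjusted p = 0.276), and -0.17 ± 0.18 without vehicle 1 and 3.

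Atf6 was at 54.6, 35.9, 31.8 and 41.7 CPM in vehicle and at 26.7, 24.9, 34.8 and 28.8 in SSO. Only vehicle 3 and SSO 3 crossed. The log2 fold change was -0.51 ± 0.19 (unadjusted p = 0.0223, edgeR adjusted p = 0.177), and -0.43 ± 0.17 without vehicle 1 and 3 (edgeR adjusted p = 0.330). Atf6b was at 45.5, 16.2, 39.1 and 28.6 CPM in vehicle and at 23.7, 25.2, 24.6 and 25.9 in SSO. Vehicle 2 lay below every SSO library and the other vehicle libraries above them. Its log2 fold change of -0.38 ± 0.26 (edgeR adjusted p = 0.430) became -0.60 without vehicle 2 (adjusted p = 0.0337, a call) and 0.15 without vehicle 1 and 3.

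Mbtps2 was at 9.18, 8.35, 11.6 and 13.0 CPM in vehicle and at 6.02, 7.83, 7.49 and 7.33 in SSO, with no overlap. The log2 fold change was -0.56 ± 0.22 (unadjusted p = 0.0259, edgeR adjusted p = 0.189) and was -0.58 ± 0.25 without vehicle 1 and 3. Mbtps1 ran from 42.1 to 62.3 CPM in vehicle and from 46.1 to 51.0 in SSO, with a log2 fold change of -0.17 ± 0.15, or -0.23 ± 0.14 without vehicle 1 and 3. Creb3l3 was at 201, 269, 161 and 241 CPM in vehicle and at 172, 185, 186 and 191 in SSO. Here vehicle 3 was the lowest library and vehicle 2 the highest, the reverse of their order for Xbp1. The log2 fold change was -0.25 ± 0.19 (edgeR adjusted p = 0.487), and -0.47 ± 0.15 without vehicle 1 and 3 (edgeR adjusted p = 0.207). Eif2ak3 ran from 10.7 to 16.3 CPM in vehicle and from 9.65 to 11.7 in SSO, with a log2 fold change of -0.38 ± 0.18 (edgeR adjusted p = 0.272), or -0.27 ± 0.22 without vehicle 1 and 3.

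The spread between libraries was itself unequal. The coefficient of variation was larger in vehicle than in SSO for 9 of 10 members, for instance 39.6% and 3.72% for Atf6b and 22.0% and 6.59% for Xbp1. It was larger in chow than in HFD for 9 of 10 as well, with 11.4% and 4.12% for Traf2. The share of all genes with the same order was not computed, so neither count sets the members apart. Vehicle 2 was the lowest vehicle library for 6 members, and vehicle 1 the highest for 5.

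Of 10 lists of cell type markers, 0 held a gene called by edgeR in either experiment. Over all genes edgeR called 2.32% (diet) and 0.450% (inhibitor), and DESeq2 called 5.94% and 7.71%. DESeq2 called genes in 6 lists under HFD (4 erythroid, 2 hepatocyte, 2 cholangiocyte and 1 each monocyte, neutrophil and stellate cell) and in 5 under SSO (7 monocyte, 3 stellate cell and 1 each plasma and B cell, cholangiocyte and erythroid). Recruited monocyte markers moved with some members and not with others. Their sum was at 611, 68.6, 683 and 106 CPM in vehicle 1 to 4 and at 36.2 to 54.1 in SSO, and all 9 of the 10 that could be tested were fitted below 0 (median log2 fold change -3.58; 0 called by edgeR, 8 at an unadjusted p under 0.05, 7 called by DESeq2 and 5 by limma-voom). Lyz2, the most abundant in vehicle, was at 189, 23.0, 189 and 41.6 CPM in vehicle and at 0.0371 to 11.3 in SSO; S100a4 was at 0 in vehicle 2 and in 3 SSO libraries. Vehicle 1 and 3, with the highest sums, also had the highest Creb3l2, Xbp1, Atf6b and Traf2. They held no common place for Ern1, where vehicle 4 was highest. Among vehicle 2 and 4 and the SSO libraries, whose sums ran from 36.2 to 106 CPM, Creb3l2 ran from 16.3 to 39.7 and was also highest where the sum was highest, in vehicle 4 and then vehicle 2. Kupffer cell markers were at 104 to 483 CPM in vehicle and 198 to 345 in SSO, stellate cell and fibroblast markers at 153 to 611 and 166 to 259.6, and neutrophil markers at 3.90 to 54.5 and 7.91 to 14.3, each highest in vehicle 1 or 3. The part of these cells in the members' values was not tested. Leaving out vehicle 1 and 3 cannot separate it. Monocyte sums in vehicle 2 and 4, at 68.6 and 106 CPM, still lay above every SSO library.

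**Figure D3:**
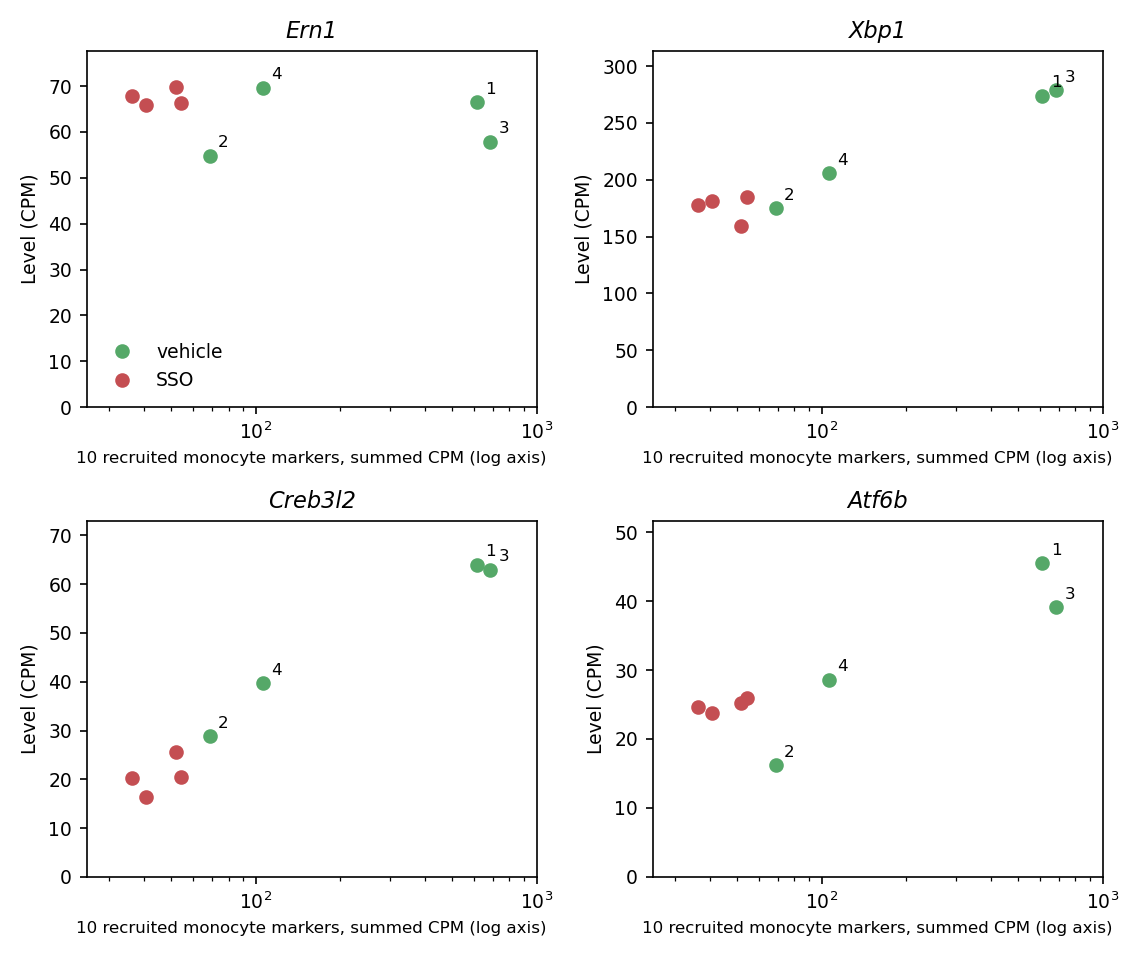
Level of Ern1, Xbp1, Creb3l2 and Atf6b (CPM) against the summed CPM of 10 recruited monocyte markers (log axis) in the 8 libraries of the inhibitor experiment; vehicle libraries carry their number. Vehicle 1 and 3 lie at the far right and are highest for Xbp1, Creb3l2 and Atf6b, while Ern1 stays between 54.8 and 69.9 CPM.

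Genes downstream of and around the members were followed in 8 lists of known pathway genes. In the diet experiment edgeR called 0 genes in 6 of the lists, and DESeq2 called 1 to 2 genes in 3 of those 6. Over all genes they called 2.32% and 5.94%, and 15.0% had an unadjusted p under 0.05 by edgeR. The chaperones and folding enzymes, the classical ATF6 and XBP1 output, had 7 of 16 fitted above 0, 9 below, a median of -0.09 and 0 at an unadjusted p under 0.05. The smallest p values there were those of Ero1l, an ER oxidase (-0.32 ± 0.17), and Canx, the lectin chaperone calnexin (0.22 ± 0.14; edgeR adjusted p = 0.427 and 0.500). ER-associated degradation and translocon genes had 1 of 21 at an unadjusted p under 0.05, Derl2, a retrotranslocation factor (-0.30 ± 0.13; edgeR adjusted p = 0.321), followed by the lectin gene Erlec1 (-0.32 ± 0.19). Of 14 tested partners of the IRE1 arm, Bax, a cell death effector that binds IRE1α, had the smallest p. It had chow levels of 14.5, 10.5 and 12.8 CPM and HFD levels of 21.5, 17.2 and 23.2 (log2 fold change 0.71 ± 0.17; edgeR adjusted p = 0.0785, DESeq2 0.0174). Sec63, a translocon subunit, came next at -0.32 ± 0.15.

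The other arms gave mixed values under HFD. Of all genes, 15.0% had an unadjusted p under 0.05 by edgeR, DESeq2 called 5.94%, and 8216 of 15589 were fitted below 0. Of 19 tested genes of the PERK and ATF4 arm, 1 was higher and 4 lower at an unadjusted p under 0.05, led by Cebpb (-0.62 ± 0.21) and Psat1, a serine synthesis enzyme (0.81 ± 0.28; edgeR adjusted p = 0.205 and 0.211). DESeq2 called 2, Asns (adjusted p = 0.0268) and Ddit4 (0.0354), both fitted below 0. Of 13 tested RIDD substrates 10 were fitted below 0, with Pdgfra at -0.61 ± 0.20 and Cd74 at 0.69 ± 0.23 (edgeR adjusted p = 0.186 and 0.207), and DESeq2 called 1, Cyp2e1 (-0.88 ± 0.31, DESeq2 adjusted p = 0.0372). Asns, Ddit4 and Cyp2e1 are named because of these calls. The CREB3 family, of which Creb3l2 and Creb3l3 are members above, had 4 of 5 genes tested and 0 at an unadjusted p under 0.05. Creb3l2 had the smallest p, followed by Creb3l1 (0.28 ± 0.31).

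Within the pathway lists, the genes that edgeR called under HFD were on those of CREBH targets and of protease substrates and SREBP control. The SREBP factors are other substrates of the proteases. The lists hold known pathway genes, and a part of CREBH or SREBP in these values was not tested. G6pc, the last enzyme of glucose release and a known CREBH target, fell: its chow levels were 274, 283 and 220.2 CPM and its HFD levels 127, 149.5 and 137 (log2 fold change -0.91 ± 0.15, edgeR adjusted p = 0.0188). It was the 1 called of 14 CREBH targets, of which 5 were fitted above 0 and 9 below (median -0.42). At an unadjusted p under 0.05 by edgeR, 1 of them was higher and 4 lower. DESeq2 called 3, all fitted below 0. Insig1, which holds SREBP in the ER, fell from 425, 258 and 211 CPM in the chow libraries to 128, 99.5 and 70.9 under HFD (-1.58 ± 0.31, edgeR adjusted p = 0.0408). Of the 11 genes in its list, 2 were called, both lower. Over all genes tested, edgeR called 2.32% and DESeq2 5.94%. An unadjusted p under 0.05 by edgeR was found for 15.0%, and 8216 of 15589 were fitted below 0. The calls on G6pc and Insig1 were lost with library size alone, where the adjusted p values were 0.0515 and 0.0743, and when chow 2 or any HFD library was left out, where they ran up to 0.145 and 0.148. The G6pc call was also lost with the replicate block (0.0600) and the Insig1 call without the low-count filter (0.0774). Both genes remained lower in HFD in each of those fits.

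**Figure D4:**
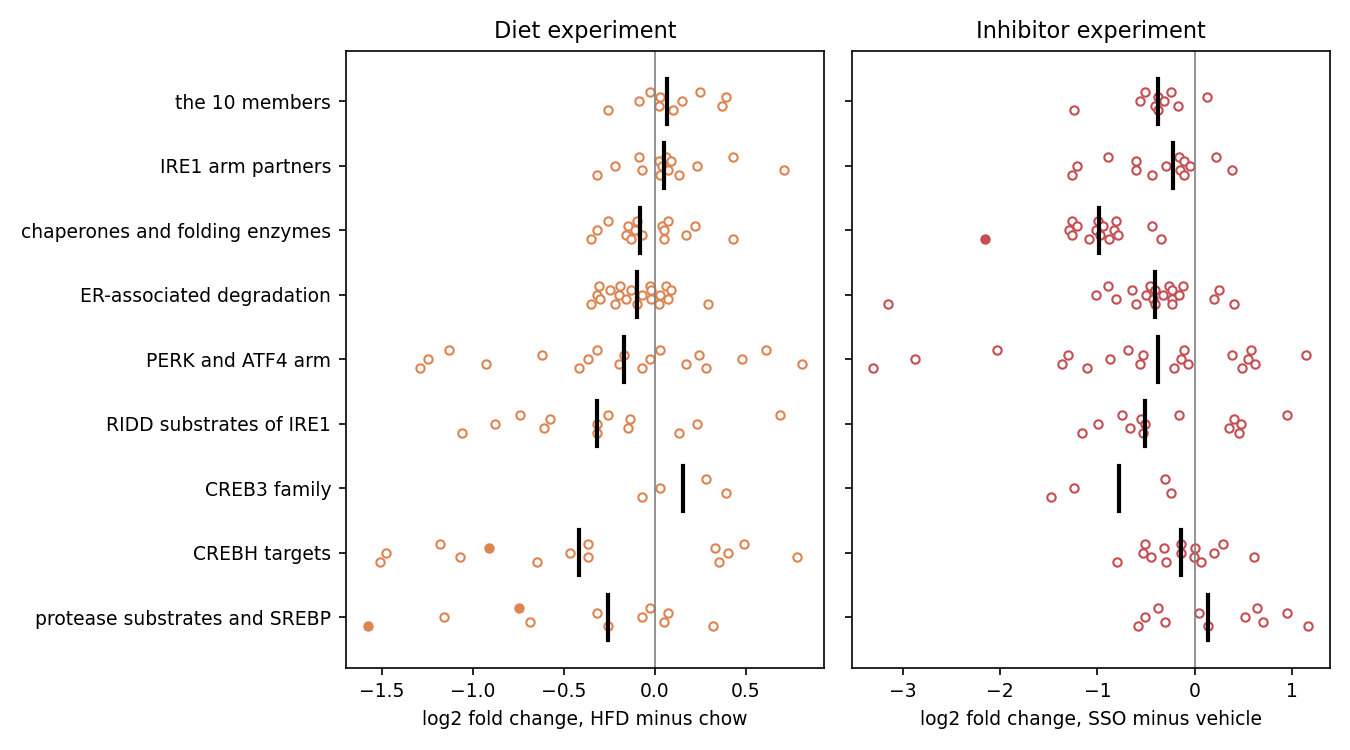
Log2 fold change of each tested gene of 8 pathway lists and of the 10 members, HFD minus chow on the left and SSO minus vehicle on the right. Filled points have an edgeR adjusted p under 0.05 and black bars are list medians; under SSO all 16 chaperones and folding enzymes lie below 0, with Creld2 called.

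Under SSO the folding machinery lay on 1 side of 0, with 1 call. All 16 chaperones and folding enzymes had fitted values below 0, with a median log2 fold change of -0.98, beside -0.04 and 53.0% below 0 over all genes. By edgeR 1 was called, 15 were lower at an unadjusted p under 0.05 and 12 were lower with no overlap between the groups, where the shares of all genes were 0.450%, 12.5% and 5.62%. DESeq2 called 12 and limma-voom 13, against 7.71% and 14.4% of all genes. Creld2, an ER protein of the stress response, was at 179, 52.4, 153 and 176 CPM in vehicle and at 38.0, 24.9, 38.0 and 25.5 in SSO, and fell (-2.15 ± 0.36, edgeR adjusted p = 0.0390). The call on Creld2 was lost, with adjusted p values up to 0.180, when vehicle 1, vehicle 3 or any SSO library was left out, and at 0.0662 with library size alone; its log2 fold change stayed between -2.42 and -2.01 over the libraries left out in turn.

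Hspa5, which encodes BiP, the main ER chaperone and the brake on all 3 sensors, was at 1577, 634, 1134 and 1335 CPM in vehicle and at 536, 335, 620.5 and 470.0 in SSO. Its SSO libraries lay below the vehicle libraries, by little in the case of vehicle 2. The log2 fold change was -1.26 ± 0.31 (edgeR adjusted p = 0.106, DESeq2 0.00207). Vehicle 2 was the lowest vehicle library for 15 of the 16 genes, and vehicle 1 the highest for 12. The mitochondrial share was also highest in vehicle 2 (22.5%) and at 15.2% to 17.6% in SSO; its part was not tested. Without vehicle 2 edgeR called 14 of the 16, in a fit that called 2646 genes in all, against 71 with every library kept. Without vehicle 1 and 3 it called 0, 15 were fitted below 0 and the median was -0.87. The part of the monocyte marker values given above in this difference was not tested, and the fit without vehicle 1 and 3 cannot separate it.

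**Figure D5:**
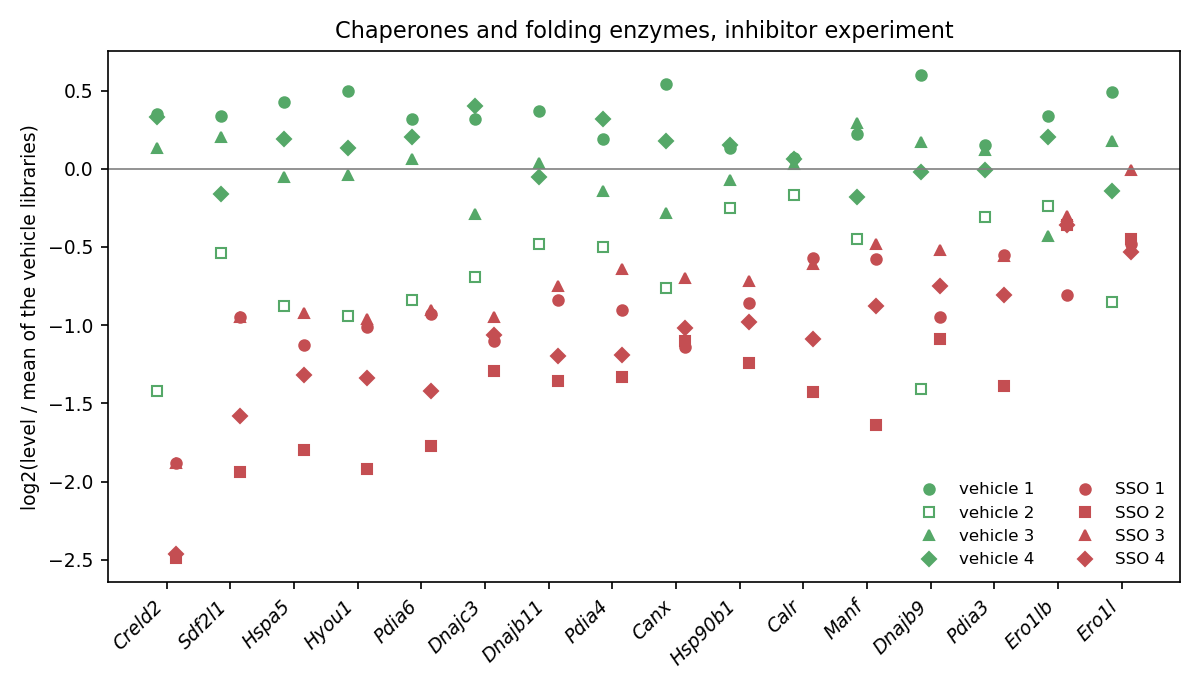
Level of 16 chaperones and folding enzymes in each library of the inhibitor experiment, as log2 of the ratio to the mean of the 4 vehicle libraries (0 line). Open squares mark vehicle 2, the lowest vehicle library for 15 of 16 genes. SSO libraries lie below 0 for every gene, and so does vehicle 2, which is below every SSO library for Dnajb9 and Ero1l.

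ER-associated degradation genes and IRE1 partners were also mostly fitted below 0 under SSO, with 0 called by edgeR. Among all genes, 53.0% were fitted below 0, 20.5% had an unadjusted p under 0.05 (12.5% lower) and DESeq2 called 7.71%. Of 21 ER-associated degradation and translocon genes, 18 were fitted below 0 (median -0.41; 10 lower and 1 higher at an unadjusted p under 0.05; 4 called by DESeq2). Syvn1, the ubiquitin ligase HRD1, was at 301, 229, 411 and 285 CPM in vehicle and at 165, 125, 171 and 142 in SSO (-1.02 ± 0.22; edgeR adjusted p = 0.0831). Sec24d, a coat protein of export vesicles, had a log2 fold change of -0.61 ± 0.17 (edgeR adjusted p = 0.111). Of 14 tested IRE1 arm partners, 12 were below 0 (median -0.23; DESeq2 called 2), led by Pdia6 (-1.21 ± 0.29) and Hspa5, which the chaperone list also holds. Without vehicle 1 and 3 the medians of the lists were -0.25 and -0.16.

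In the PERK and ATF4 arm 8 genes were lower and 5 higher at an unadjusted p under 0.05, of 20 tested (median -0.38, DESeq2 called 8). Of all genes, 20.5% reached that limit (12.5% lower), 53.0% were fitted below 0 and DESeq2 called 7.71%. Ddit3, which encodes the death-linked factor CHOP, was at 25.3, 16.1, 30.9 and 41.6 CPM in vehicle and at 9.16 to 13.1 in SSO (-1.36 ± 0.26; edgeR adjusted p = 0.0648). Atf3, a stress factor induced by ATF4, was at 28.3, 3.49, 31.3 and 12.3 CPM in vehicle and at 3.23 or less in SSO (-2.87 ± 0.60; edgeR adjusted p = 0.0866). For both, vehicle 2 was the vehicle library nearest to SSO. On the higher side, and named after their values were seen, Atf4, the arm's main factor, was at 97.7 to 119 CPM in vehicle and 147 to 173 in SSO (0.54 ± 0.15; edgeR adjusted p = 0.116, DESeq2 0.00561), and Cebpb at 57.5 to 78.9 and 86.8 to 137 (0.62 ± 0.19; edgeR adjusted p = 0.135). Without vehicle 1 and 3 the median of the arm was -0.21 and edgeR called 1 gene, Asns (-1.65 ± 0.30, adjusted p = 0.0497). RIDD substrates had 8 of 13 below 0 (median -0.51), with Sparc at -1.16 ± 0.35 and Hgsnat at -0.67 ± 0.27 (edgeR adjusted p = 0.130 and 0.202). Without vehicle 1 and 3 the RIDD median was 0.08, with 6 of 14 tested below 0, and edgeR called 1, Cd74, which was higher (1.01 ± 0.18, adjusted p = 0.0497). Sparc, a matrix protein, was at 194 and 153 CPM in vehicle 1 and 3 and at 60.6 and 65.7 in vehicle 2 and 4, beside SSO values of 47.7 to 59.2.

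The CREB3 family had all 4 tested genes below 0 under SSO, with a median of -0.78, or -0.23 over 5 tested without vehicle 1 and 3. Creb3l2 came first, followed by Creb3l1, a factor of collagen-secreting cells, at -1.48 ± 0.53 (edgeR adjusted p = 0.168), which was at 9.84 and 15.1 CPM in vehicle 1 and 3 and at 1.89 to 3.90 in the other 6 libraries. CREBH targets had 0 of 14 at an unadjusted p under 0.05 (median -0.14), with Cpt1a, the gate of mitochondrial fat oxidation, at -0.53 ± 0.25 and Cidec, a lipid droplet protein, at -0.51 ± 0.29 (edgeR adjusted p = 0.270 and 0.347). Without vehicle 1 and 3 the median of this list was -0.53 and edgeR called 1 gene, Cpt1a, which was lower (-0.86 ± 0.15, adjusted p = 0.0467). In the list of protease substrates and SREBP control genes, which also holds the members Atf6 and Atf6b, 7 of 11 were fitted above 0 and 4 below. The median was 0.13, and 0.19 without vehicle 1 and 3, with 0 called by edgeR in both fits. In the main fit 4 were higher and 2 lower at an unadjusted p under 0.05, and DESeq2 called 4. The shares of all genes were 20.5% at that limit (12.5% lower), 53.0% fitted below 0 and 7.71% called by DESeq2. Insig1 was at 272, 475, 227 and 368 CPM in vehicle and at 561, 718, 571 and 719.7 in SSO (0.94 ± 0.26; edgeR adjusted p = 0.111). All SSO libraries lay above all vehicle libraries.

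Across libraries, Xbp1 and Ern1 resembled different genes. Among the 8031 genes tested in both tables with a mean log2 CPM of at least 3 in each, leaving out predicted genes, ranked by the smaller of the Pearson r of log2 CPM in the 6 diet and the 8 inhibitor libraries, the genes most like Xbp1 included Actb (0.93 and 0.93) and Nek6 (0.94 and 0.91). Actb, cytoplasmic actin, was at 1565 and 1839 CPM in vehicle 1 and 3 and at 611 to 829 in the other 6 inhibitor libraries. Those most like Ern1 were Gstm4 (0.79 and 0.79) and Gstp1 (0.79 and 0.79), both glutathione transferases, and Gbe1, the glycogen branching enzyme (0.84 and 0.72). Gstp1 was at 436 to 633 CPM in vehicle 1 to 3 and at 919 to 1013 in vehicle 4 and SSO. Ern1 and Xbp1 themselves had an r of 0.64 in the diet libraries and -0.24 in the inhibitor libraries, while Creb3l2 and Xbp1 had 0.78 and 0.88. Libraries share scaling and cell makeup, so these values only describe which levels moved together here.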

How the data were processed

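Bulk liver RNA was sequenced after polyT selection, per the labels' protocols. The authors deposited raw counts, 1 whole number for each Ensembl gene and library. The submitters' processing notes name GRCm38 and, as tools, featureCounts 2.0.2, HISAT2 2.2.1, Trim Galore 0.6.1 and DESeq2. Whether counting used strand, and from which annotation release, is not given in the sources used here. Columns were assigned to groups by name; control columns carry only C and a number. In both experiments 1 sample record stands for all libraries of its group. No label ties each inhibitor library to its own animal, and those p-values rest on spread between libraries that may be technical.

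Each table was fitted alone with edgeR 4.0.16 in R 4.3.3 (robust quasi-likelihood test, TMM scaling, filterByExpr, Benjamini-Hochberg over all genes tested, called at an adjusted p under 0.05). CPM use TMM-scaled totals; RPKM divide these by summed exon length in GENCODE for GRCm38. A count of 0 allows up to 3 counts, 0.0770 to 0.136 CPM, counting error only. Alternatives were DESeq2 1.42.0, limma 3.58.1 (voom with sample weights), library size alone, no low-count filter, a replicate block, each library left out in turn and, added after seeing the data, vehicle 1 and 3 left out together. The fits were tested on simulated data, drawn with the same dispersion for all genes and no outlying library. That test does not cover the spread between the vehicle libraries. Named were all 10 members, up to 4 called genes of each of 8 pathway lists by smallest p, or the 2 with the smallest p where none was called, the 3 genes most like Ern1 and like Xbp1, and the most abundant genes of 10 marker lists. Of the genes this rule names, 3 are not reported here. Members and lists were chosen with earlier results of these data known.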

Additional observations from a re-analysis of the deposited data

How the results depend on the processing

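No diet member was called under any alternative run. For the inhibitor, 1 member was called by DESeq2, 1 by limma-voom and 1 without the low-count filter, each time Creb3l2, and 0 to 2 with each library left out in turn, where Atf6b was the second. The genes called in the diet experiment numbered 361, against 926 by DESeq2, 672 without the filter, and 86 (without HFD 1) to 681 (without chow 1) with each library left out. In the inhibitor experiment they numbered 71, against 1218 by DESeq2, 2274 by limma-voom, 37 by library size alone, 205 without the filter, 62 without vehicle 1 and 3, and 0 (without vehicle 1 or any SSO library) to 2646 (without vehicle 2).

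Diet signs near 0 turned for Atf6b (0.00 by limma-voom, 0.14 by library size alone, -0.15 to 0.15 over libraries left out), Creb3l3 (-0.02 by limma-voom, -0.16 to 0.19), Mbtps2 (0.05 by library size alone, -0.20 to 0.07), Eif2ak3 (-0.06 to 0.38) and Ern1 (-0.11 to 0.26). Inhibitor signs turned for Ern1 (-0.05 by library size alone) and Atf6b (0.15 without vehicle 1 and 3). The cause was not tested. Column numbers did not pair the libraries: same-numbered deviations had r of -0.11 to 0.02 and -0.07 to 0.03. With the number as a replicate block 206 and 47 genes were called, and 0 members in each. The macrophage libraries of the series, among them those with Ern1 deleted, were not analysed here. Gene counts do not show Xbp1 splicing, cleavage of ATF6 or kinase activity.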
